A study of Homo sapiens with 18 samples.

Results

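The mRNA of hepatocyte growth factor (HGF), of its receptor MET and of 8 further receptor tyrosine kinases was followed in cells labelled A1847, a human high-grade serous ovarian cancer line. The members were the rows of the count table whose Ensembl identifiers carry the symbols HGF, MET, EGFR, ERBB2, ERBB3, FGFR1, IGF1R, PDGFRA, AXL and KIT, which are 10 of 57736 genes. The set was chosen by the measured counts of HGF, which were nearly 0 in the vehicle-treated CARM1 knockout libraries. The contrast of knockout and control cells under vehicle is therefore described here without a test, as is every value of HGF that rests on those libraries.

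Receptor tyrosine kinases are membrane proteins that bind a growth factor outside the cell, pair up, and phosphorylate tyrosines on their own tails, where adaptors then assemble the RAS–MAPK and PI3K–AKT cascades. HGF is secreted as an inactive single chain that serine proteases cut into its active form, and MET is its receptor. In many tissues mesenchymal cells make HGF and epithelial cells carry MET. Feedback proteins such as the Sprouty family and the dual-specificity phosphatases restrain the same cascades and are induced by them. These receptors are glycoproteins that fold in the endoplasmic reticulum (ER).

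The study asked how the arginine methyltransferase CARM1 and the ER stress transcription factor XBP1 shape gene expression when the ER is stressed. RNA came from 6 groups of 3 libraries each: control cells, which were wild type for CARM1 and XBP1, CARM1 knockout cells and XBP1 knockdown cells, each with vehicle or with tunicamycin. Tunicamycin blocks N-glycosylation and so causes ER stress, and it was given at 5 μg/ml for 8 h. The knockout used a single CRISPR guide in a lentiviral vector and kept wild-type XBP1. The knockdown used a short hairpin RNA and kept wild-type CARM1. Whether the knockout cells were a clone or a pool is not given in the sources used here. The labels number the replicates without saying that they were separate cultures, so the p-values measure only the spread between these libraries.

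The libraries held 9367462 to 13917212 counts (median 12899157.5). Mean CARM1 mRNA was 162 ± 2.69 CPM (the count scaled to a common library size, mean ± SD, n = 3) in control cells and 74.2 ± 3.11 CPM in knockout cells under vehicle, and XBP1 mRNA was 45.9 CPM in control cells and 25.4 CPM in knockdown cells under vehicle. These tags come from transcript 3′ ends, so the CARM1 level does not test the edit itself. The knockout libraries stood apart from the other 12. The correlation of log2 CPM across genes (genes are not independent replicates) was 0.730 to 0.775 between a knockout library and any other library, 0.961 to 0.987 between control and knockdown libraries and 0.986 to 0.989 between replicates. Markers moved with this split. PAX8, a transcription factor of Müllerian epithelium, had 0 to 2 counts in the control and knockdown libraries and 465 to 840 counts in the knockout libraries. The summed level of 13 ovarian carcinoma epithelium markers was 312 to 333 CPM in control and 2700 to 2790 CPM in knockout libraries under vehicle, although MUC16 and SOX17 had at most 3 counts in every library. The summed level of 8 fibroblast markers was 2340 to 2430 CPM and 463 to 502 CPM in the same groups, but its members moved in opposite directions. COL1A1 had 169 to 259 counts in control and 3996 to 6247 counts in knockout libraries under vehicle, whereas COL1A2 had 10211 to 12954 and 0 to 7 counts, POSTN 10272 to 11878 and 0 to 9, and COL3A1 2785 to 3403 and 0 to 1. Immune markers (5 genes) summed to at most 10.4 CPM and endothelial markers (3 genes in the table) to at most 8.47 CPM in any library. Whether the knockout and control libraries come from the same cell line is given by the labels alone and was not tested, and it bears on every knockout value below. The loss of CARM1 and any other difference between the knockout and control populations cannot be told apart in these data, nor can fewer expressing cells and less mRNA per cell.

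One further library mattered for genes near 0. In tunicamycin-treated knockout replicate 2, 18 genes that had at least 500 counts in every control library and at most 3 counts in all vehicle-treated knockout libraries together summed to 103 counts, which was 0.471% of their level in tunicamycin-treated control cells. They summed to 29 counts (0.143%) in replicate 1 and 15 counts (0.0686%) in replicate 3. HGF and PDGFRA met this rule themselves, and their values in tunicamycin-treated knockout cells are therefore given with and without replicate 2. The rule for these 18 genes was set after the values were seen.

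The promoters of HGF and MET are shown because these genes had opposite levels in the same libraries. The windows run from 250 bases before to 50 bases after the annotated start in RefSeq (GRCh38.p14), 5′ to 3′ on the gene's strand, with each CG dinucleotide in capitals. HGF lies on the minus strand of chromosome 7 (chr7:81769998-81770297) and MET on the plus strand (chr7:116671946-116672245).
HGF: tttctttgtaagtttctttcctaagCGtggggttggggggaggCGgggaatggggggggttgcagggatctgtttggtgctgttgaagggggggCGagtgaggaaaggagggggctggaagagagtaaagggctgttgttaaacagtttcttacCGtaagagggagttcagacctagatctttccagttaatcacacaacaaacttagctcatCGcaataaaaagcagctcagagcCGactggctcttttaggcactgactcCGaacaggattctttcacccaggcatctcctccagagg
MET: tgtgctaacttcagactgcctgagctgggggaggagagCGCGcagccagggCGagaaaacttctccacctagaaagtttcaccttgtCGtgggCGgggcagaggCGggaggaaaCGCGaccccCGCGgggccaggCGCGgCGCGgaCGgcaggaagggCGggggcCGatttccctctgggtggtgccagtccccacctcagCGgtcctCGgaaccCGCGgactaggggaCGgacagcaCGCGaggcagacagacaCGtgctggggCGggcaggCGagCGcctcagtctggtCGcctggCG
The HGF window held 7 CG dinucleotides at 51.0% GC, and the MET window held 30 at 69.3% GC. The median of 35116 RefSeq windows was 14 CG dinucleotides and 58.7% GC. Of those windows, 39.3% held at most as many CG dinucleotides as HGF and 22.4% at least as many as MET. Windows were found for 8 of the 10 members (11 windows in all), and none for ERBB3 and FGFR1. The XBP1 motifs were searched on both strands. The unfolded protein response element TGACGTGG, present in 0.729% of all windows, and the full ER stress response element, present in 0.0769%, were in none of the 11. ACGTCA, which the paper matched to the core of the XBP1 motif at CARM1-bound genes, was also in none, against 7.98% of all windows. The shorter ACGT was in the windows of MET, IGF1R and KIT, 1 EGFR window and 1 AXL window, against 33.3% of all windows. The AP-1 motif TGANTCA was in 1 EGFR window, in the ERBB2 window and in 1 PDGFRA window, against 7.71% of all windows. The end of the ER stress response element, CCACG, was in the windows of HGF, MET, IGF1R and KIT, against 38.1% of all windows. These are letter matches in short windows and not sites of binding.

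On the GRCh37 build HGF lies at chr7:81328326-81399754 (minus strand) and MET at chr7:116312250-116438431 (plus strand), 34.9 Mb apart, with EGFR on the same chromosome at chr7:55086710-55279321. PDGFRA (chr4:55095447-55164412) and KIT (chr4:55523434-55606949) are neighbours, 359 kb apart. ERBB2 lies at chr17:37844167-37886679, ERBB3 at chr12:56470583-56497289, IGF1R at chr15:99191768-99507759, AXL at chr19:41725128-41767671 and FGFR1 on chromosome 8. All are annotated as protein coding, and the counts are sums over each gene.

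**Figure D1:**
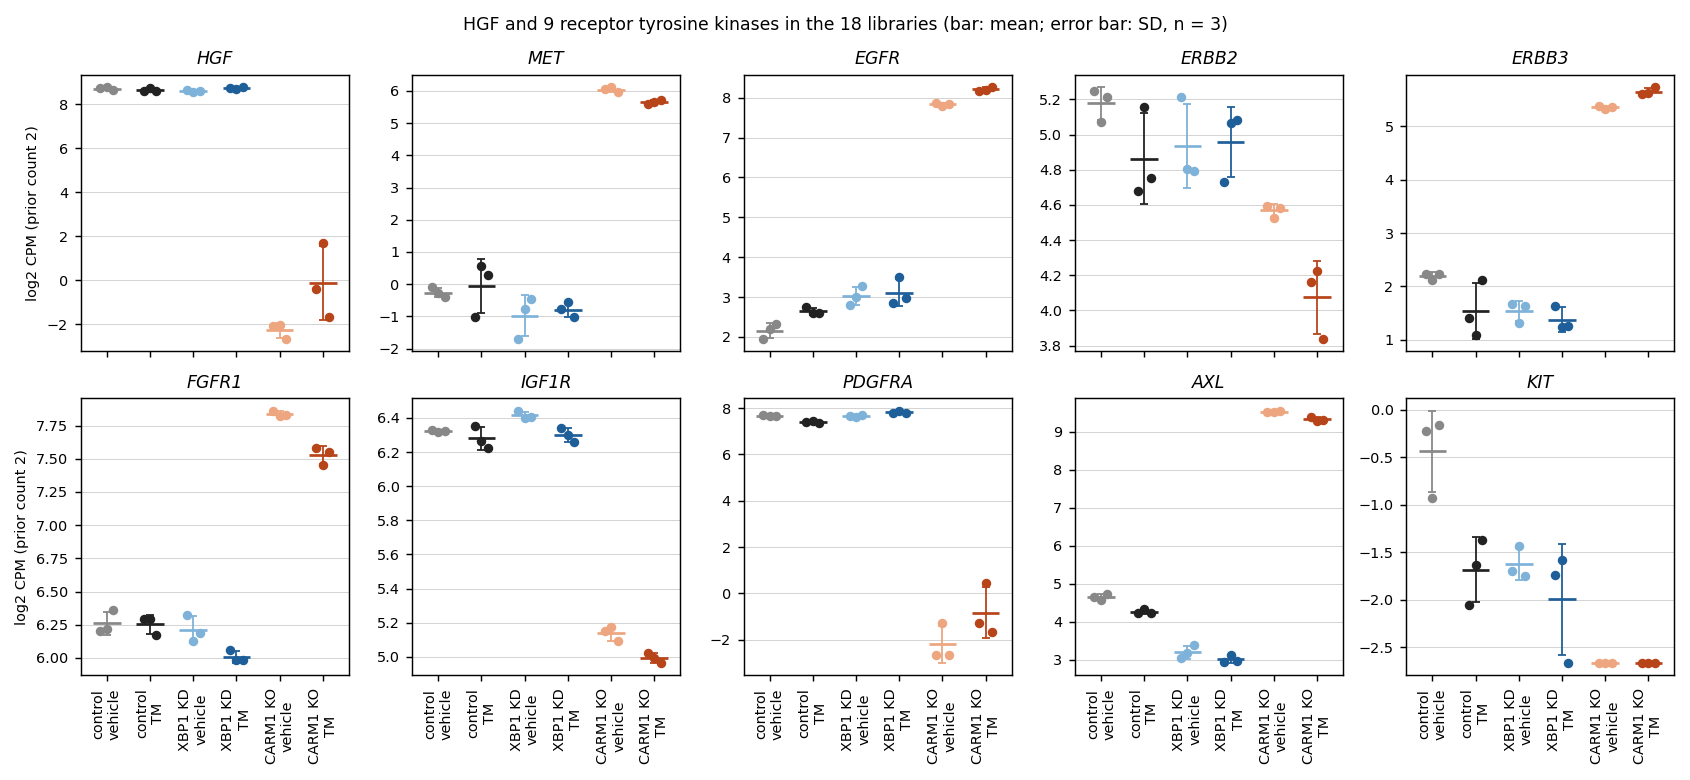
Level of each member (log2 CPM with a prior count of 2, each panel with its own scale) in the 18 libraries, with 3 points per group, the group mean as a bar and the SD as an error bar. HGF and PDGFRA lie near the floor in the CARM1 knockout libraries, where MET, EGFR, ERBB3, FGFR1 and AXL lie above all control and knockdown libraries, and TM stands for tunicamycin.

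Of the 10 members, 9 passed the filter on low counts and entered tests across 17317 genes, and KIT did not. MET passed through its level in the knockout libraries, and HGF and PDGFRA passed through their levels in control and knockdown libraries, so knockout against control is given for these 3 genes as a description with no test. For them the difference between the tunicamycin responses of knockout and control cells is also a description. Between knockout and control cells under tunicamycin, all 6 members with at least 10 counts in every library were called at a false discovery rate of 5% (EGFR, ERBB3, FGFR1 and AXL higher, ERBB2 and IGF1R lower in the knockout), where 75.2% of all genes tested were called (38.4% higher and 36.8% lower). Most of the transcriptome thus differed in this contrast, and the call alone does not set the members apart. Under vehicle, without a test, the libraries of knockout and control cells did not overlap for 9 of 9 members (5 higher and 4 lower), against 75.9% of all genes. Of all genes, 39.5% were higher and 36.4% lower in this way. The median log2 fold change of the members was 1.53, against -0.03 for all genes. XBP1 knockdown changed 2 of 9 members under vehicle, 1 higher and 1 lower (5.10% of all genes were called, 2.07% higher and 3.03% lower), and 3 of 9 under tunicamycin, 1 higher and 2 lower (15.5% of all genes, 6.99% higher and 8.55% lower). Tunicamycin changed 4 of 9 members in control cells, 1 higher and 3 lower (41.9% of all genes, 22.0% higher and 19.9% lower). It changed 6 of the 8 tested in knockout cells, HGF aside, 2 higher and 4 lower (39.5% of all genes, 20.6% higher and 18.8% lower), and 3 of 9 in knockdown cells, 2 higher and 1 lower (38.3% of all genes, 19.2% higher and 19.0% lower). All adjusted p-values below come from edgeR's quasi-likelihood test with Benjamini-Hochberg adjustment over all genes tested.

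HGF, the ligand, was abundant in control and knockdown cells and close to 0 in knockout cells. Under vehicle the 3 control libraries had 5538, 5944 and 5995 HGF counts, the knockdown libraries 5345, 5319 and 5567, and the knockout libraries 1, 1 and 0. Under tunicamycin the counts were 4742, 5216 and 5068 in control, 6055, 4757 and 5275 in knockdown, and 7, 39 and 2 in knockout libraries. No knockout library overlapped any other group, and the knockout replicate with 39 counts was replicate 2. On the CPM scale HGF was 423 ± 18.9 in vehicle-treated control cells and 0.0538 ± 0.0467 in vehicle-treated knockout cells (n = 3 each). The depth-scaled ratio of summed counts, control over knockout, was 7070 under vehicle (95% exact Poisson interval 1960 to 58400, counting error only), which is the value that chose the gene. Under tunicamycin, in libraries the choice did not use, the ratio was 309 (233 to 419) and the fitted log2 fold change was -8.26. Without tunicamycin-treated knockout replicate 2 the fitted value was -10.04.

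The other 4 groups held similar HGF levels. They ranked from tunicamycin-treated knockdown cells (427 ± 9.47 CPM) through vehicle-treated control (423 CPM) and tunicamycin-treated control (403 ± 24.0 CPM) to vehicle-treated knockdown cells (390.3 ± 12.6 CPM), and each neighbouring pair in that order overlapped. Tunicamycin against vehicle gave a log2 fold change of -0.06 (SE 0.0567, adjusted p = 0.480) in control cells. HGF rose slightly with tunicamycin in knockdown cells, by 0.12 on the log2 scale (SE 0.0418, adjusted p = 0.0310). That call was lost with an adjusted p of 0.0504 to 0.156 when vehicle-treated knockdown replicate 2 or 3 or tunicamycin-treated knockdown replicate 3 was left out. XBP1 knockdown against control gave -0.12 (adjusted p = 0.191) under vehicle and 0.08 (adjusted p = 0.290) under tunicamycin. In knockout cells HGF summed to 2 counts with vehicle and 48 with tunicamycin, of which 39 were in replicate 2, which also carried more of the other control-high genes. HGF in replicate 2 was at 0.768% of the mean of tunicamycin-treated control cells. The part of that library in the HGF counts is given by the values without it.

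MET, the HGF receptor, showed the opposite arrangement. The vehicle-treated libraries had 10, 9 and 9 MET counts in control cells, 2, 6 and 8 in knockdown cells, and 856, 821 and 543 in knockout cells. With tunicamycin the counts were 4, 16 and 14 in control cells, 6, 6 and 4 in knockdown cells, and 567, 631 and 664 in knockout cells. Every knockout library was above every other library. Mean MET was 0.680 ± 0.0867 CPM in vehicle-treated control cells and 65.8 ± 3.38 CPM in vehicle-treated knockout cells. The ratio of summed counts, knockout over control, was 98.0 (67.6 to 148) under vehicle and 55.5 (39.5 to 80.3) under tunicamycin. Thus the libraries with HGF mRNA had almost no MET mRNA and those with MET mRNA had almost no HGF mRNA.

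MET fell with tunicamycin in knockout cells, from 65.8 to 50.5 CPM (log2 fold change -0.35, SE 0.0584, adjusted p = 4.37e-05), and the groups did not overlap. In control and knockdown cells no library had more than 16 MET counts. The corresponding log2 fold changes there were 0.43 (SE 0.519) and 0.14 (SE 0.639), and a difference of the size seen in knockout cells was not detectable at this depth. XBP1 knockdown against control gave -0.82 (adjusted p = 0.497) under vehicle and -1.07 (adjusted p = 0.256) under tunicamycin. The difference between the responses of knockout and control cells was -0.81 (SE 0.379), given as a description.

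The proteases, inhibitors and membrane partners of the HGF–MET pair were mostly higher in knockout cells. Of 17 genes listed, 11 were tested, and under tunicamycin 10 were higher in knockout than in control cells, 0 were lower, and the median log2 fold change was 3.21, against 38.4% higher, 36.8% lower and a median of -0.02 for all genes tested. Genes near 0 in control cells, such as CD44 and NRP1, passed the filter through the knockout libraries, so this count is a description. The gene not called was MACC1, a transcriptional regulator of MET, named here after its value was seen. CD44, whose splice forms act as co-receptors of MET, had 0 to 8 counts in the control libraries and 2647 to 4931 in the knockout libraries. NRP1, a co-receptor for several growth factors, had 0 to 7 counts in control libraries, 49 to 85 in vehicle-treated and 164 to 247 in tunicamycin-treated knockout libraries. SPINT2, an inhibitor of the proteases that activate HGF, had 12 to 36 counts in control and 578 to 988 in knockout libraries. The urokinase gene PLAU was higher in knockout cells under tunicamycin (log2 fold change 2.04, SE 0.198, adjusted p = 2.06e-07). The tissue plasminogen activator gene PLAT was also higher (4.84, SE 0.155, adjusted p = 4.47e-13). Both encode proteases that can cut pro-HGF.

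Tunicamycin lowered PLAU in all genotypes, by -0.89 in control (adjusted p = 0.00849), -1.04 in knockout (adjusted p = 1.19e-08) and -0.98 in knockdown cells (adjusted p = 0.00224). In control cells 1 gene of this list rose, RANBP9, a scaffold that binds MET (0.53, adjusted p = 0.000304), and PLAU was the 1 that fell. Of all genes, 22.0% rose and 19.9% fell there. In knockout cells 2 rose and 5 fell with tunicamycin, where 20.6% of all genes rose and 18.8% fell. NRP1 rose (1.5, SE 0.150, adjusted p = 3.64e-08), and ITGB4, the β4 integrin that pairs with MET, fell (-0.73, adjusted p = 4.24e-05). XBP1 knockdown changed 0 of 11 under either treatment, where 5.10% of all genes were called under vehicle and 15.5% under tunicamycin. Some of the 11 passed the filter through the knockout libraries and were near 0 in control and knockdown libraries. SERPINA5 had 0 counts in all of these, CD44 had 0 to 9 and NRP1 0 to 8. Counts of calls among these libraries are therefore a description for this list.

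**Figure D2:**
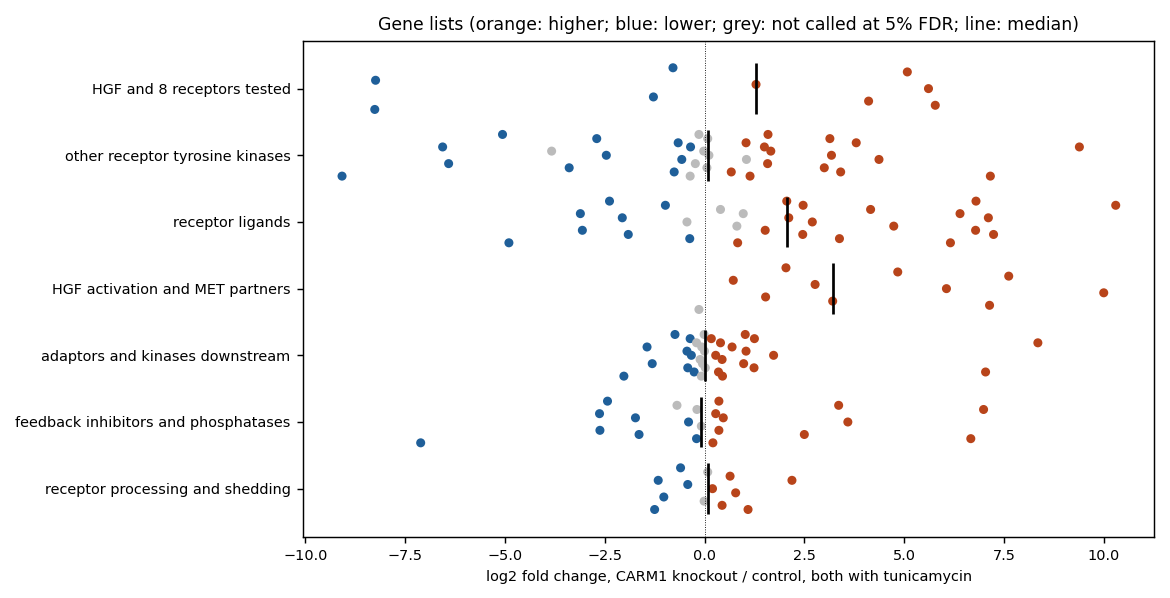
Fitted log2 fold change of CARM1 knockout against control cells, both with tunicamycin, for the tested genes of 7 lists, with 1 point per gene, orange for higher and blue for lower at a false discovery rate of 5%, grey for not called, and a line at the list's median. The list of HGF activation and MET partners has 10 orange points, 0 blue points and a median of 3.21, and HGF, MET and PDGFRA are plotted although each passed the count filter only through the groups where it was high.

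EGFR and ERBB3 were higher and ERBB2 was lower in knockout cells. EGFR binds EGF-like ligands. Its counts under vehicle were 48, 60 and 72 in control, 91, 110 and 135 in knockdown, and 3004, 2663 and 2009 in knockout libraries. Under tunicamycin they were 79, 71 and 78 in control, 101, 127 and 93 in knockdown, and 3378, 3711 and 3873 in knockout libraries. By group EGFR was highest in knockout cells with tunicamycin (297 ± 9.32 CPM), then knockout with vehicle (229 ± 5.11 CPM), then the overlapping knockdown groups (8.66 ± 2.18 and 8.05 ± 1.33 CPM), then control with tunicamycin (6.12 ± 0.393 CPM) and control with vehicle (4.32 ± 0.561 CPM). Knockout against control under tunicamycin gave a log2 fold change of 5.61 (SE 0.0690, adjusted p = 1.86e-17).

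EGFR rose with tunicamycin in knockout cells by 0.41 (SE 0.0377, adjusted p = 8.55e-09) and in control cells by 0.51 (SE 0.175, adjusted p = 0.0279). The call in control cells rested on 48 to 79 counts per library and was lost with vehicle-treated control replicate 1 (adjusted p = 0.102) or 2 (0.0558) or tunicamycin-treated control replicate 1 (0.101) or 3 (0.0577) left out, and DESeq2 did not make it. In knockdown cells the value was 0.09 (SE 0.183, adjusted p = 0.768), and the difference from control cells was -0.41 (SE 0.261, adjusted p = 0.529). XBP1 knockdown raised EGFR under vehicle by 0.89 (SE 0.174, adjusted p = 0.00773), and the groups did not overlap. Under tunicamycin the same contrast gave 0.49 (SE 0.184, adjusted p = 0.0851), and the groups did not overlap there either. It was called with no filter (adjusted p = 0.0492), with all libraries in one fit (0.0232) and without tunicamycin-treated knockdown replicate 1 (0.0423). It stayed uncalled in 5 of 7 alternative settings and in 5 of 6 fits that left out 1 library.

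ERBB2 has no known soluble ligand and pairs with other ERBB receptors. Its counts under vehicle were 488, 454 and 552 in control, 490, 391 and 393 in knockdown, and 309, 273 and 208 in knockout libraries. Under tunicamycin they were 306, 431 and 353 in control, 374, 379 and 407 in knockdown, and 207, 233 and 178 in knockout libraries. The 4 control and knockdown groups overlapped in CPM (29.3 ± 5.49 to 36.1 ± 2.29), the knockout group with vehicle lay below them (23.6 ± 0.594) and the knockout group with tunicamycin lay lowest (16.8 ± 2.33). Under tunicamycin knockout cells had less ERBB2 than control cells (log2 fold change -0.79, SE 0.133, adjusted p = 6.79e-05).

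ERBB2 fell with tunicamycin in knockout cells (-0.45, SE 0.102, adjusted p = 0.00107). It also passed the threshold in control cells (-0.29, SE 0.111, adjusted p = 0.0470), although the CPM of the groups overlapped there. That call was lost when vehicle-treated control replicate 1 or 3 or tunicamycin-treated control replicate 1 or 3 was left out (adjusted p = 0.0975 to 0.165). The value was 0.01 (SE 0.120) in knockdown cells, and neither interaction was called (-0.18 and 0.30, adjusted p = 0.484 and 0.503).

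ERBB3, which binds neuregulins and has little kinase activity of its own, responded to tunicamycin differently in knockout and control cells. Under vehicle its counts were 59, 57 and 68 in control, 40, 33 and 42 in knockdown, and 537, 478 and 357 in knockout libraries. Under tunicamycin they were 30, 24 and 55 in control, 42, 25 and 27 in knockdown, and 563, 620 and 669 in knockout libraries. ERBB3 rose from 40.9 ± 0.814 to 50.2 ± 2.59 CPM in knockout cells (log2 fold change 0.33, SE 0.0646, adjusted p = 0.000245). In control cells it was 4.44 ± 0.208 CPM with vehicle and 2.88 ± 1.15 CPM with tunicamycin, and this contrast was not called (-0.60, SE 0.252, adjusted p = 0.0690). It stayed uncalled in 4 of 7 alternative settings (adjusted p = 0.0117 at the lowest) and in 5 of 6 fits that left out 1 library. The difference between the responses of knockout and control cells was 0.91 (SE 0.215, adjusted p = 0.00397) and kept its call in all 12 fits that left out 1 library (0.76 to 1.36). Knockout against control under tunicamycin gave 4.11 (SE 0.153, adjusted p = 2.75e-12). XBP1 knockdown gave -0.69 under vehicle (SE 0.201, adjusted p = 0.0659) and -0.22 under tunicamycin (adjusted p = 0.700).

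ERBB4 and NRG1 were near 0 on opposite sides of the knockout. ERBB4, a second neuregulin receptor, had 412 to 832 counts in control libraries, 446 to 998 in knockdown libraries and 0 to 2 in knockout libraries, the same direction as HGF. NRG1, a neuregulin, had 0 to 4 counts in control and knockdown libraries and 364 to 611 in knockout libraries. AREG (amphiregulin, an EGFR ligand) had 39, 53 and 44 counts in knockout libraries with vehicle and 201, 203 and 271 with tunicamycin, a rise of 2.20 on the log2 scale (SE 0.162, adjusted p = 2.72e-10). In control libraries it had 2, 4 and 0 counts with vehicle and 12, 20 and 6 with tunicamycin (2.75, SE 0.775, adjusted p = 0.00875), and the difference between these responses was -0.57 (SE 0.706, adjusted p = 0.628).

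FGFR1, a receptor for fibroblast growth factors, was higher and IGF1R, the receptor for insulin-like growth factors, lower in knockout cells. FGFR1 counts under vehicle were 949, 1006 and 1226 in control, 1060, 985 and 1037 in knockdown, and 2987, 2703 and 1989 in knockout libraries. Under tunicamycin they were 941, 947 and 947 in control, 941, 718 and 761 in knockdown, and 2234, 2204 and 2360 in knockout libraries. The knockout groups lay highest, at 229 ± 2.83 CPM with vehicle and 185 ± 8.72 CPM with tunicamycin. Both control groups and the vehicle-treated knockdown group overlapped (74.2 to 76.5 CPM), and the tunicamycin-treated knockdown group lay lowest (64.1 ± 1.94 CPM).

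Knockout against control under tunicamycin gave a log2 fold change of 1.29 for FGFR1 (SE 0.0546, adjusted p = 1.31e-11). Tunicamycin lowered FGFR1 in knockout cells (-0.27, SE 0.0404, adjusted p = 9.26e-06) and in knockdown cells (-0.22, SE 0.0632, adjusted p = 0.0128), and the value in control cells was 0.00 (SE 0.0680, adjusted p = 0.998). The response differed between knockout and control cells (-0.29, SE 0.0771, adjusted p = 0.00794), but this call was lost without control replicate 1 or 2 of either treatment (adjusted p = 0.0712 to 0.113). The difference between knockdown and control cells was -0.21 (SE 0.0922, adjusted p = 0.311). FGFR1 was lower in knockdown than in control cells under tunicamycin (-0.24, SE 0.0620, adjusted p = 0.0138), with an adjusted p of 0.0552 without tunicamycin-treated knockdown replicate 2 and 0.0643 without replicate 3. The call for FGFR1 with tunicamycin in knockdown cells was lost without tunicamycin-treated replicate 2 (adjusted p = 0.0530) or 3 (0.0546) or vehicle-treated replicate 1 (0.0564).

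IGF1R differed between genotypes only for the knockout in these tests. Under vehicle its counts were 1038, 1080 and 1194 in control, 1151, 1190 and 1203 in knockdown, and 455, 428 and 296 in knockout libraries. Under tunicamycin they were 982, 928 and 981 in control, 1145, 897 and 923 in knockdown, and 377, 400 and 391 in knockout libraries. The knockout groups (35.0 ± 1.03 and 31.7 ± 0.636 CPM) lay below the control and knockdown groups (77.6 ± 3.68 to 85.2 ± 1.28 CPM). The tested contrast under tunicamycin was -1.28 (SE 0.0631, adjusted p = 7.2e-11). No tunicamycin, knockdown or interaction contrast of IGF1R was called. Their log2 values lay between -0.12 and 0.08.

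PDGFRA, a receptor for platelet-derived growth factors that marks mesenchymal cells, followed HGF in the genotypes. Under vehicle it had 2672, 2776 and 3004 counts in control, 2651, 2794 and 2979 in knockdown, and 0, 3 and 0 in knockout libraries. Under tunicamycin it had 2021, 2095 and 2150 counts in control, 3140, 2666 and 2636 in knockdown, and 3, 15 and 2 in knockout libraries. The 15 counts were again in replicate 2. The ratio of summed counts, control over knockout, was 2280 (780 to 11100) under vehicle and 309 (200 to 507) under tunicamycin. The fitted log2 fold change under tunicamycin was -8.24, and it was -9.60 without knockout replicate 2.

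Tunicamycin moved PDGFRA in opposite directions in control and knockdown cells. In control cells it fell from 204 ± 2.80 to 168 ± 4.79 CPM (log2 fold change -0.27, SE 0.0527, adjusted p = 0.000557). In knockdown cells it rose from 202 ± 5.96 to 225 ± 8.39 CPM (0.14, SE 0.0471, adjusted p = 0.0264), a call that was lost without vehicle-treated replicate 1 (adjusted p = 0.0565) or 2 (0.108) or tunicamycin-treated replicate 2 (0.101). The difference between these responses was 0.42 (SE 0.0663, adjusted p = 0.00111), where 2.04% of all genes were called (0.364% higher and 1.67% lower), and PDGFRA was the 1 member called of 9. It kept this call in all 12 fits that left out 1 library. Control and knockdown cells had overlapping levels under vehicle (-0.02, adjusted p = 0.887), and knockdown cells had more PDGFRA under tunicamycin (0.42, SE 0.0494, adjusted p = 2.85e-05).

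In knockout cells PDGFRA summed to 3 counts with vehicle and 20 with tunicamycin (ratio 6.07, 1.80 to 31.9), and the contrast was not called (2.50, SE 1.04, adjusted p = 0.0618). It ranged from 1.16 to 5.70 over the fits that left out 1 library, replicate 2 among them. The contrast was called with no filter (adjusted p = 0.034), all libraries in one fit (0.0197) or the replicate block (0.0407). It was also called without tunicamycin-treated replicate 3 (0.0289) or vehicle-treated replicate 2 (0.0208). The difference from the response of control cells was 2.76 (SE 0.865), given as a description, and it rested on the 23 counts of the knockout libraries. It was 1.40 without tunicamycin-treated knockout replicate 2, and 1.40 to 6.07 over the fits that left out 1 library. HGF, MET and PDGFRA aside, ERBB3 was called higher and FGFR1 lower in this interaction, where 22.9% of all genes were called (10.5% higher and 12.4% lower).

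KIT, the stem cell factor receptor next to PDGFRA, was near the limit of detection. It had 9, 5 and 11 counts in vehicle-treated control, 1, 2 and 3 in tunicamycin-treated control, 2, 3 and 2 in vehicle-treated knockdown, 2, 2 and 0 in tunicamycin-treated knockdown, and 0 in all 6 knockout libraries. Control cells under vehicle had at least 6.74-fold more KIT than knockout cells, taking 3 counts over the group as the limit that a count of 0 allows. The vehicle-treated control libraries were above those of the other groups. The ratio to tunicamycin-treated control cells was 3.75 (1.5 to 11.2) and that to vehicle-treated knockdown cells was 3.59 (1.51 to 9.82), with intervals for counting error only and no test. KITLG, the ligand of KIT, had 78 to 185 counts in knockout and 5 to 17 in control libraries.

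AXL, a receptor for GAS6, was lower in XBP1 knockdown cells and higher in knockout cells than in control cells. It had 323, 323 and 393 counts in control, 107, 125 and 146 in knockdown, and 9507, 8676 and 6509 in knockout libraries under vehicle. With tunicamycin the counts were 222, 241 and 246 in control, 107, 98 and 93 in knockdown, and 7766, 7834 and 8032 in knockout libraries. The genotypes did not overlap under either treatment. AXL was lower in knockdown than in control cells under vehicle, at 9.06 ± 1.11 against 25.03 ± 1.26 CPM (log2 fold change -1.47, SE 0.109, adjusted p = 1.4e-06). It was also lower under tunicamycin, at 7.95 ± 0.572 against 19.0 ± 0.767 CPM (-1.26, SE 0.119, adjusted p = 3.02e-06), and both calls held in all 6 fits that left out 1 library. In knockout cells AXL was 737 ± 8.95 CPM with vehicle and 642 ± 22.5 CPM with tunicamycin, and the contrast with control cells under tunicamycin was 5.08 (SE 0.0559, adjusted p = 1.03e-17).

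Tunicamycin lowered AXL in control cells (-0.39, SE 0.0933, adjusted p = 0.00302) and in knockout cells (-0.16, SE 0.0330, adjusted p = 0.000366), and the value in knockdown cells was -0.20 (SE 0.145, adjusted p = 0.317). Neither interaction was called (0.20, adjusted p = 0.0660 for the knockout and 0.19, adjusted p = 0.670 for the knockdown). For the knockout this was close to the threshold: it passed in 3 of 7 alternative settings (adjusted p = 0.0123 at the lowest) and in 6 of 12 fits without 1 library, those without any 1 of the 6 control libraries. GAS6, its ligand, had 0 to 5 counts in control and knockdown libraries and 219 to 372 in knockout libraries. TYRO3, another GAS6 receptor, fell with tunicamycin in control (-1.68, SE 0.194, adjusted p = 2.64e-06), knockdown (-1.08, adjusted p = 0.000333) and knockout cells (-0.53, adjusted p = 0.031). The fall was smaller in knockout than in control cells (interaction 1.13, SE 0.29, adjusted p = 0.00706).

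**Figure D3:**
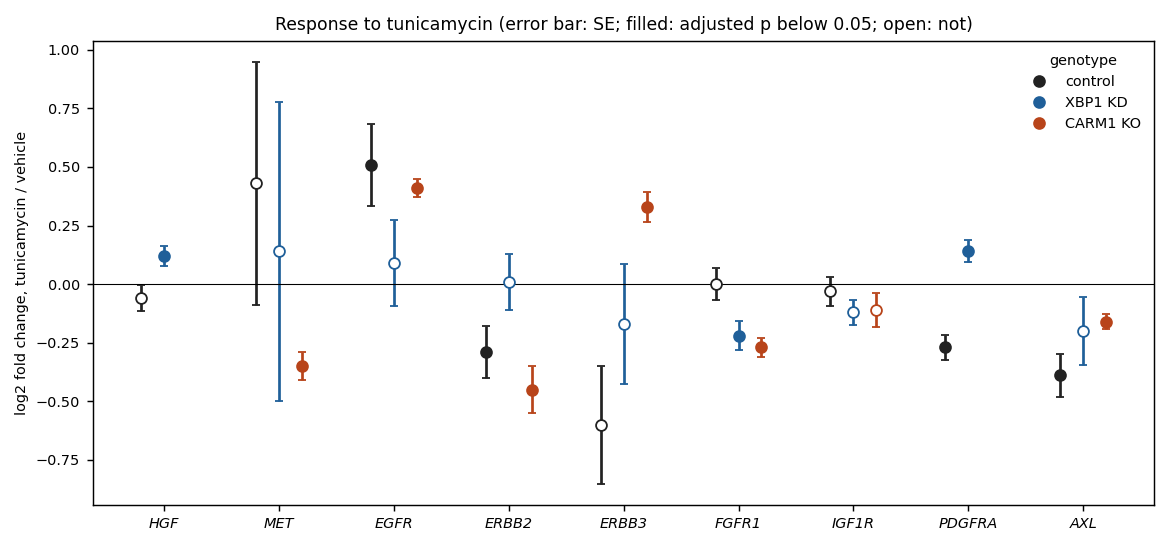
Log2 fold change of tunicamycin over vehicle (y axis) for 9 members in control, XBP1 knockdown and CARM1 knockout cells, with SE as error bars, filled points called at a false discovery rate of 5% and open points not called. HGF and PDGFRA in knockout cells are left out because those groups held 2 to 48 counts, ERBB3 lies above 0 in knockout cells and below 0 in control cells, and PDGFRA lies below 0 in control cells and above 0 in knockdown cells.

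**Figure D4:**
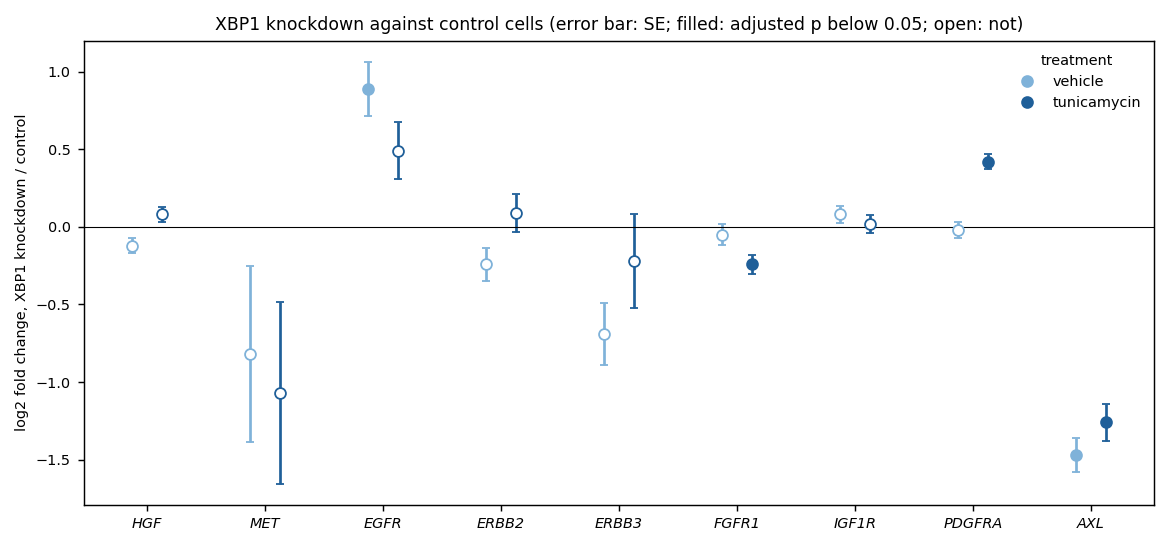
Log2 fold change of XBP1 knockdown over control cells (y axis) for 9 members under vehicle and under tunicamycin, with SE as error bars, filled points called at a false discovery rate of 5% and open points not called. AXL is lower under both treatments (-1.47 and -1.26), EGFR is called under vehicle and PDGFRA and FGFR1 under tunicamycin.

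Across the 49 other receptor tyrosine kinases, 35 were tested. Under tunicamycin 15 were higher and 11 lower in knockout than in control cells (median 0.08), against 38.4% and 36.8% of all genes (median -0.02). Receptors near 0 on 1 side, such as ERBB4 and EPHB1, passed the filter through the groups where they were high. This count is therefore a description. EPHB1 and EPHA4, receptors for ephrins, had 0 to 3 counts wherever CARM1 was not knocked out and 219 to 329 and 61 to 108 counts in knockout libraries. Of these receptors, more fell than rose with tunicamycin: 2 rose and 13 fell in control cells (median -0.29), 2 rose and 15 fell in knockout cells (median -0.34) and 1 rose and 13 fell in knockdown cells (median -0.18), while 20, 18 and 21 were not called. Of all genes, 22.0%, 20.6% and 19.2% were called higher and 19.9%, 18.8% and 19.0% lower in these comparisons. Their median was 0.00 each time. DDR2, a collagen receptor, was the 1 receptor of this list that rose in all 3 genotypes. It rose by 1.68 in control (SE 0.0520, adjusted p = 3.27e-13), 1.60 in knockdown (SE 0.0375, adjusted p = 5.77e-14) and 1.58 in knockout cells (SE 0.183, adjusted p = 3.32e-07), although its level was 327 to 346 CPM in vehicle-treated control and 3.32 to 4.27 CPM in vehicle-treated knockout libraries. PTK7, a kinase-dead Wnt co-receptor, fell by -1.04, -1.36 and -1.20 in control, knockdown and knockout cells (adjusted p = 9.95e-09, 1.52e-07 and 6.07e-11). XBP1 knockdown lowered EPHA7, an ephrin receptor, under vehicle (-1.5, adjusted p = 0.000187) and under tunicamycin (-1.30, adjusted p = 0.000234), among 3 and 6 receptors called. Of all genes, 5.10% and 15.5% were called in these contrasts.

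Of 35 receptor ligands, 29 were tested, and under tunicamycin 17 were higher and 8 lower in knockout than in control cells (median 2.06), against 38.4% and 36.8% of all genes. Ligands near 0 in control cells, such as FGF1 and NRG1, passed the filter through the knockout libraries. FGF1, a ligand of FGFR1, had 0 to 2 counts wherever CARM1 was not knocked out and 58 to 133 in knockout libraries. FGF2, another ligand of FGFR1, rose with tunicamycin in knockout cells, from 66.5 to 73.9 CPM per library with vehicle to 240.4 to 253 CPM (log2 fold change 1.83, SE 0.0469, adjusted p = 2.09e-18). Its response was larger there than in control cells (interaction 1.53, SE 0.101, adjusted p = 1.07e-09). VEGFA, the vascular endothelial growth factor, rose in control (1.42, SE 0.0945, adjusted p = 3.82e-09), knockdown (1.43, SE 0.0775, adjusted p = 1.06e-09) and knockout cells (2.82, SE 0.108, adjusted p = 2.81e-15), and more so in knockout than in control cells (interaction 1.37, SE 0.148, adjusted p = 8.76e-07). For the knockdown the VEGFA interaction was 0.02 (SE 0.121, adjusted p = 0.997). PDGFA, a ligand of PDGFRA, had 0 to 8 counts in control and 413 to 679 in knockout libraries.

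Among 32 adaptors and kinases downstream of the receptors, all were tested. Under tunicamycin 15 were higher and 9 lower in knockout than in control cells (median 0.01), against 38.4% and 36.8% of all genes. IRS2, an adaptor of the insulin and IGF1 receptors, had 3 to 14 counts in control and 1665 to 2269 in knockout libraries. IRS1, the related adaptor, was lower in knockout cells (-2.02, SE 0.113, adjusted p = 3.15e-10). SHC1, an adaptor that recruits GRB2 to activated receptors, was the 1 gene of this list called in the knockdown interaction, where 2.04% of all genes were called. It had 139, 139 and 159 CPM with vehicle and 303, 308 and 327 CPM with tunicamycin in control libraries (log2 fold change 1.11, SE 0.0629, adjusted p = 5.33e-10). In knockdown libraries it had 163, 170.4 and 165 CPM with vehicle and 247, 224 and 226 CPM with tunicamycin (0.48, SE 0.0506, adjusted p = 1.94e-06). The difference was -0.63 (SE 0.0815, adjusted p = 0.000163). The SHC1 response was also smaller in knockout than in control cells (interaction -0.73, SE 0.0796, adjusted p = 1.09e-06), where 22.9% of all genes were called. NRAS was lower in knockdown than in control cells under vehicle (-0.37, adjusted p = 0.0271) and tunicamycin (-0.64, adjusted p = 0.000358).

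Several feedback inhibitors were higher in knockdown than in control cells. Of 23 listed, 21 were tested, and under tunicamycin 5 were higher and 0 lower in knockdown than in control cells (6.99% and 8.55% of all genes were). In the knockdown interaction 3 were called, all higher, SPRY4, SPRY2 and DUSP6 (0.364% of all genes were called higher and 1.67% lower). SPRY2 and DUSP6 were close to the threshold, and the alternatives were run for the members only. In the knockout interaction SPRY4 (0.75, adjusted p = 0.00336) and DUSP6 (1.11, adjusted p = 6.01e-10) were also called higher, as were 10.5% of all genes. SPRY2 was not called there (-0.24, adjusted p = 0.165). SPRY4, a Sprouty protein, had 44.02, 43.3 and 39.7 CPM in vehicle-treated and 21.3, 22.1 and 20.9 CPM in tunicamycin-treated control libraries, and 51.4, 51.9 and 53.4 CPM against 36.3, 42.1 and 39.9 CPM in the knockdown libraries. It fell in both, by -0.97 (SE 0.0831, adjusted p = 8.36e-08) and -0.42 (SE 0.0706, adjusted p = 0.000204), and the difference was 0.56 (SE 0.104, adjusted p = 0.00443). SPRY2 rose by 0.40 in control (SE 0.0606, adjusted p = 4.79e-05) and 0.70 in knockdown cells (SE 0.0530, adjusted p = 4.52e-08), and the difference was 0.31 (SE 0.0799, adjusted p = 0.0486). DUSP6, a phosphatase that inactivates ERK, was higher in knockdown than in control cells under vehicle (0.28, SE 0.0474, adjusted p = 0.00277) and tunicamycin (0.58, SE 0.0490, adjusted p = 7.78e-07), with an interaction of 0.28 (SE 0.0702, adjusted p = 0.0416).

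In knockout cells the same inhibitors were low. Per library DUSP6 was 371 to 391 CPM in vehicle-treated control and 31.4 to 33.2 CPM in vehicle-treated knockout cells, and it rose with tunicamycin in the knockout to 73.8 to 78.0 CPM (log2 fold change 1.26, SE 0.0602, adjusted p = 1.38e-13). SPRY1 had 605 to 887 counts in control and 3 to 8 in knockout libraries. DUSP5, an ERK phosphatase of the nucleus, went the other way, with 4 to 62 counts in control and 474 to 977 in knockout libraries. Over the whole list 10 were higher and 8 lower in knockout than in control cells under tunicamycin (median -0.08). Of all genes, 38.4% were higher and 36.8% lower in this contrast. CBLB, a ubiquitin ligase that marks receptors for degradation, rose with tunicamycin in all genotypes, by 2.35 in control, 2.47 in knockdown and 1.77 in knockout cells (adjusted p = 3.3e-09, 1.29e-08 and 5.09e-05).

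**Figure D5:**
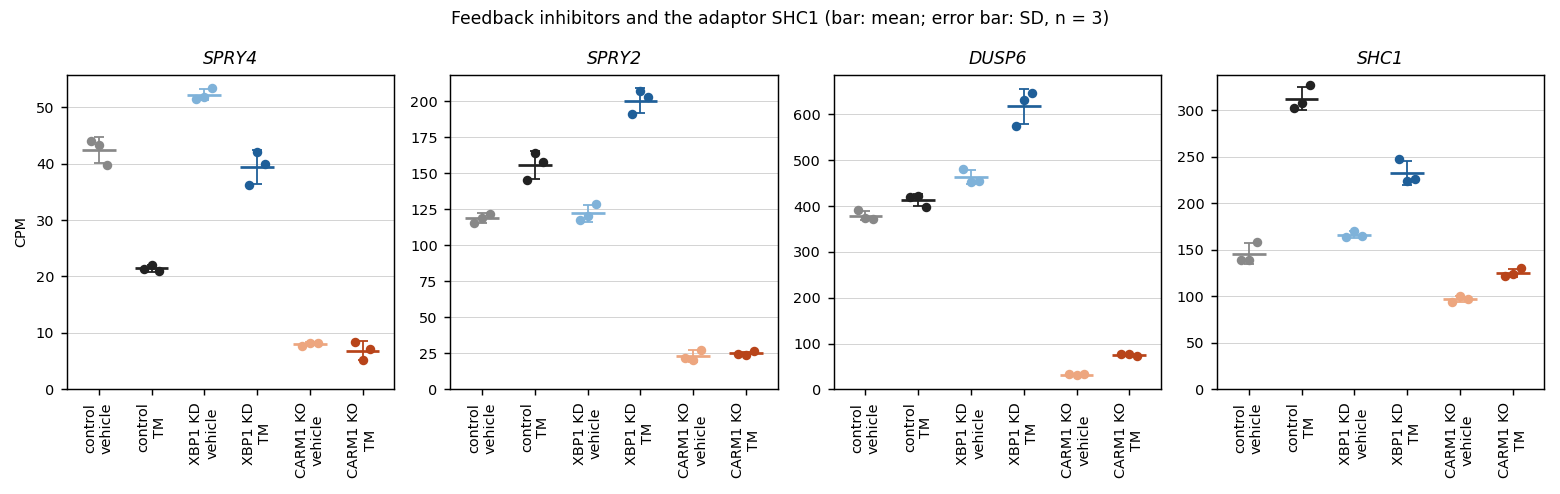
CPM of SPRY4, SPRY2, DUSP6 and SHC1 in the 18 libraries (linear axes from 0), with 3 points per group, the group mean as a bar and the SD as an error bar. With tunicamycin (TM), SPRY4, SPRY2 and DUSP6 lie higher and SHC1 lower in XBP1 knockdown than in control libraries without overlap, and the knockout libraries lie lowest for SPRY4, SPRY2 and DUSP6.

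Among genes for receptor processing and shedding, all 13 were tested. Under tunicamycin 6 were higher and 5 lower in knockout than in control cells (median 0.08), against 38.4% and 36.8% of all genes. HSP90B1, the ER chaperone GRP94 that folds several growth factor receptors, rose with tunicamycin by 1.63 in control (SE 0.0494, adjusted p = 2.65e-13), 1.48 in knockdown (SE 0.0336, adjusted p = 4.23e-14) and 2.27 in knockout cells (SE 0.0298, adjusted p = 1.24e-23), and more in knockout than in control cells (interaction 0.63, SE 0.0558, adjusted p = 6.69e-08). FURIN, the protease that cuts the MET and IGF1R precursors, fell by -1.08, -0.75 and -0.44 in control, knockdown and knockout cells (adjusted p = 8.57e-06, 3.38e-05 and 0.0111). ADAM17, a sheddase of receptors and ligands, rose by 0.54 in control, 0.43 in knockdown and 0.75 in knockout cells (adjusted p = 1.08e-06, 5.82e-05 and 1.54e-11).

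The genes whose log2 CPM followed HGF most closely over the 18 libraries were LIN28B (Pearson r = 0.9989), PDGFRA (0.9967), COL1A2 (0.9964), UBB (0.9961) and SPOCK2 (0.9961). For MET they were CTSH (0.9937), ITGA3 (0.993), NEDD9 (0.9929), SLC39A13 (0.9927) and TACC1 (0.9925). HGF and MET themselves gave r = -0.975. These values are descriptions that mostly follow the split between the 6 knockout and the 12 other libraries, and 45 genes had r above 0.99 with HGF and 26 with MET. By rank correlation 0 of these 5 stayed among the top 5 for HGF, and 1, CTSH, for MET. The nearest tested coding genes on the 2 sides of HGF went in opposite directions between knockout and control cells under tunicamycin: SEMA3C, 777 kb away, was higher (log2 fold change 3.69, adjusted p = 4.73e-15), and CACNA2D1, 176 kb away, was lower (-3.95, adjusted p = 5.48e-15). Beside MET, CAV1 at 111 kb was higher (4.52, adjusted p = 6.67e-17) and CAPZA2 at 12.7 kb was lower (-0.87, adjusted p = 2.82e-08). These 4 neighbours were taken by position after the results were known.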

How the data were processed

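3′ mRNA-seq libraries of A1847 cells were sequenced by the authors as 75 nt single reads, aligned to hg19 with bowtie2 and quantified with RSEM on the Ensembl transcriptome (its version is 1.2.3 in the submitters' processing notes and the release is not given in the sources used here). The deposited values are whole-number expected counts per gene, not normalized. Groups came from the labels, 18 columns were matched to 18 samples, and 0 columns were left unmapped. Symbols were matched for 55501 of 57736 identifiers. RSEM divides reads shared by related genes by estimation.

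Here the deposited expected counts were tested in R 4.3.3 with edgeR 4.0.16 and limma 3.58.1 (filterByExpr with a minimum count of 10 over all libraries, TMM normalization, quasi-likelihood F test on the compared groups alone, Benjamini-Hochberg adjustment over 17317 genes, calls at 5%). SE is the size of the log2 fold change over the square root of F. Ratios of summed counts have exact 95% Poisson intervals that cover counting error only. DESeq2 1.42.0, its size factors, other filters, all libraries in one fit, a 1% threshold, a replicate block and leaving out each library were the alternatives. The fits were tested on simulated data with known changes of 1 or 2 log2 units. For tunicamycin in control cells 63.6% and 90% of these changes were recovered, and 11.2% of the calls were false. For the knockout interaction 57.9% and 79.6% were recovered, and 7.48% of the calls were false. Both shares of false calls were above 5%, which bears on calls close to the threshold. Replicates differed by more than counting error (chi-square per degree of freedom 1.84 to 6.89 over 18 pairs), so none was merged in the fits. The ratios of summed counts do add the libraries of a group, and their intervals leave this spread out.

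The members and gene lists were chosen with earlier results of these data known. Genes of the lists were named if they were among the 3 called genes with the largest change in a list and comparison, at a mean of at least 2 CPM. Comparisons with control cells share the control libraries, so values were set side by side only. Motif windows are from RefSeq (GRCh38.p14) and gene positions from GRCh37. Protein sequences were not used here.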

Additional observations from a re-analysis of the deposited data

Results flagged for a closer look

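The response to tunicamycin differed between genotypes, by an interaction term of edgeR's quasi-likelihood test, for 4 results. For PDGFRA in knockout cells this term is a description only. ERBB3 responded more positively in CARM1 knockout than in control cells, by 0.91 on the log2 scale (SE 0.215, adjusted p = 0.00397). In the knockout 3 of 3 tunicamycin-treated libraries lay above all vehicle-treated ones. In control cells 3 of 3 lay below, but the closest were 4.178 and 4.199 CPM, and that contrast was not called (adjusted p = 0.0690). FGFR1 responded more negatively in knockout than in control cells (-0.29, SE 0.0771, adjusted p = 0.00794), and leaving out 1 of 4 control libraries removed the call. The PDGFRA value for knockout cells (2.76, SE 0.865) rested on 3 and 20 counts and became 1.40 without tunicamycin-treated knockout replicate 2. PDGFRA also responded more positively in XBP1 knockdown than in control cells (0.42, SE 0.0663, adjusted p = 0.00111), with 3 of 3 tunicamycin-treated libraries above all vehicle-treated ones in knockdown cells and 3 of 3 below in control cells. The causes were not tested.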

How the results depend on the processing

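Depth limited MET in control and knockdown cells, KIT everywhere and HGF and PDGFRA in knockout cells. The calls of the 6 members with at least 10 counts in every library, between knockout and control cells under tunicamycin, held under all alternatives run. Members called with tunicamycin in control cells went from 4 to 2 at a threshold of 1% and ranged from 2 to 4 with 1 library left out. In knockdown cells they went from 3 to 0 at 1% (3 by DESeq2), to 1 with all libraries in one fit and to 1 with the replicate block, and from 1 to 3 with 1 library left out. The replicate numbers did not pair the libraries (0 of 15 group pairs with every correlation over 0.1, range -0.0513 to 0.0451). With the replicate block, HGF (0.12) and PDGFRA (0.14) in knockdown cells lost their calls, ERBB3 in control cells (-0.64) and PDGFRA in knockout cells (2.63) gained one, and no other member's call changed.

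The fitted HGF change with tunicamycin in knockout cells was 4.25, and 2.49 to 4.78 with 1 library left out, the lowest without tunicamycin-treated replicate 2. The median of the members between knockout and control cells under vehicle was 1.53, and 1.52 to 1.61 with 1 library left out. By Spearman's rho 0 and 1 of the 5 genes most like HGF and MET were kept. Directions that turned with 1 library left out were all of values that were not called. With tunicamycin in knockdown cells MET ranged from -0.22 to 0.53, EGFR from -0.12 to 0.22 and ERBB2 from -0.07 to 0.16. Between knockdown and control cells under tunicamycin ERBB2 ranged from -0.01 to 0.25, ERBB3 from -0.43 to 0.15 and IGF1R from -0.01 to 0.06. In the knockout interaction EGFR ranged from -0.14 to 0.05, ERBB2 from -0.26 to 0.04 and IGF1R from -0.12 to 0.02, and in the knockdown interaction MET from -0.65 to 0.10. The causes were not tested.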
